A study of Mus musculus with 12 samples.

Results

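The genes described here encode 7 proteins of central nervous myelin: Mbp, Mobp, Mog, Mag, Cnp, Mal and Cldn11. They were taken as every probe set of the array whose only gene symbol in the platform annotation is 1 of these names, which gave 13 of 12422 probe sets and 7 of 8251 named genes. Mobp has 4 probe sets, Mbp, Mag and Cldn11 have 2 each, and Mog, Cnp and Mal have 1 each. No filter on low signals was applied, so all 13 entered every test. Probe sets of a gene are not counted as independent of each other, and where each lies on the transcripts of its gene was not looked up here.

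RNA came from the frozen cerebellum, cortex and liver of 1 adult NMR-1 mouse, and each tissue was prepared in 2 ways for MG_U74Av2 arrays, an Affymetrix oligonucleotide array of mouse transcripts. In the modified procedure (3X), 1 ng of total RNA went through 3 linear amplifications with the RiboAmp HS kit, and each tissue had 3 technical replicates. In the standard Affymetrix procedure (1X), 5 µg of total RNA went through 1 linear amplification, and each tissue had 1 array. Input, kit and number of amplifications differ together between the procedures and cannot be told apart. All 12 arrays share the same animal, so a p-value here covers the spread between arrays and no difference between mice. A 1X array has no replicate, so 1X values are printed with no error, and tissue differences at 1X are given as values and were not tested.

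Myelin is the stack of membrane that oligodendrocytes wrap around axons in the brain. In compact myelin the cytoplasm is squeezed out and the membrane faces adhere, with Mbp and Mobp on the cytoplasmic side. Mag faces the axon at the inner edge of the sheath, Mog lies on its outer surface, and Cldn11 forms the tight junction strands between the wraps. White matter of the cerebellum and the tracts below the cortex hold most of the myelin of these regions, and hepatocytes make none. In pieces of tissue, fewer cells of a type and less RNA per cell cannot be told apart.

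Values are RMA log2 signals as deposited, differences are given on the log2 scale, and an error after ± is the standard error (SE) of the limma fit unless SD is written. The array medians lay between 3.45 and 3.48, the 3X arrays between 3.45 and 3.46 and the 1X arrays between 3.46 and 3.48. RMA gives no detection call, so a signal near or below the median is called dim here and no fold is given against it. A probe set was called when its Benjamini-Hochberg adjusted p over the 12422 probe sets was under 0.05. The SD of the 3 replicates in a 3X group ranged from 0.02 to 0.48 over the 13 probe sets. Lists of tissue markers were chosen with earlier results of these data known, so they are no independent check of the labels. At 3X, 13 of 13 hepatocyte genes were called lower in brain than in liver, against a background of 8.17% of all probe sets. Of 11 cerebellar genes, 8 were called higher in cerebellum than in cortex, with Gabra6, a receptor subunit of granule cells, at 2.33 ± 0.15 (limma, adjusted p = 3.19e-05). Of 9 cortical genes, 4 were called lower there, with Nrgn, a calmodulin-binding protein of forebrain neurons, at -1.77 ± 0.13 (adjusted p = 7.75e-05). The background for these 2 regions was 0.628% higher and 0.435% lower. A list of 26 measured kidney genes also stood higher in cerebellum than in cortex. Its mean level was 4.04 to 4.15 in the 3X cerebellum arrays against 3.41 to 3.44 in the 3X cortex arrays, and 4.08 in the 1X cerebellum array against 3.20 in the 1X cortex array. Signals on this log scale have no true zero, and the part of kidney transcripts in the differences below was not tested.

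Promoters of the genes are shown because SOX10, the SOX factor that oligodendrocytes need to make myelin, binds short SOX sites in DNA. RefSeq starts of assembly GRCm38.p6 were used for 6 of the 7 genes and gave 8 promoters, each of 250 bases before a start. Mbp has no promoter here. A setting of the search left out promoters of these genes on 1 chromosome. The lack of an Mbp promoter here therefore does not mean that RefSeq gives none. The 32851 promoters below were not filtered by chromosome. The 8 promoters were searched on both strands for the SOX core, ACAAAG or ACAATG, and for the E-box CAGCTG. The SOX core was present in 4 of the 8 promoters, 2 of them overlapping promoters of Mag, against 25.2% of the 32851 promoters of the table. The E-box was present in 0 of 8, against 13% of all, so no matches of the 2 motifs overlapped. The Mobp promoter held 6 SOX cores, and it was the only 1 of the 32851 to hold 6 or more. Of 3 Mag promoters, those of the overlapping starts held the same core, 126 and 67 bases before their starts, and the third held none. The Mog promoter held none. The sequences read 5′ to 3′ on the gene's strand with each core in capitals, and CTTTGT is ACAAAG read on the other strand. Mobp lies at chr9:120149492-120149741 (+), the Mag promoter with the core at 126 bases at chr7:30914864-30915113 (-) and Mog at chr17:37023399-37023648 (-).
Mobp: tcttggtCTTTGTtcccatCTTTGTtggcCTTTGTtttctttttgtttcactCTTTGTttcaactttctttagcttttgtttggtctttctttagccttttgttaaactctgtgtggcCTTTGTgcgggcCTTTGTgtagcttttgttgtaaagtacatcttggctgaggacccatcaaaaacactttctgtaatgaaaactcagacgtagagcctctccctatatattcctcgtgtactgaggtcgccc
Mag: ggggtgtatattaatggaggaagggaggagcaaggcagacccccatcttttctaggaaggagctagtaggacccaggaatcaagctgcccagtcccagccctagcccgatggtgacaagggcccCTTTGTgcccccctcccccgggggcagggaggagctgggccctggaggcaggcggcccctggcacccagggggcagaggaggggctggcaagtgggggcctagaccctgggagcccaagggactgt
Mog: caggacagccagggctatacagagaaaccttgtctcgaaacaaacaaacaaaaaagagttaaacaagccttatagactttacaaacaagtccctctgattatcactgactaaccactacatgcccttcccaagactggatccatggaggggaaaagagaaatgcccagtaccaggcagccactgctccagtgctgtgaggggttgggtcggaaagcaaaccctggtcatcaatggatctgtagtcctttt
A match of letters is a description of the sequence and was not tested as a binding site.

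Signals of the compact myelin genes Mbp and Mobp were highest in cerebellum, then cortex, then liver in 3 of their 6 probe sets at 3X, with no overlap between tissues. Mog and Mal had the same order at 3X over a narrower range, while the tissues overlapped at 3X for Mag, Cldn11 and Cnp. At 3X, 3 of 13 probe sets were called higher in cerebellum than in cortex and 0 were called lower, against a background of 0.628% and 0.435% of all probe sets. The 3 belong to Mbp and Mobp. At 3X, 5 of 13 were called higher in brain, the mean of cerebellum and cortex, than in liver and 0 lower, against a background of 12.3% and 8.17%. These 5 belong to Mbp, Mobp, Mog and Mal. Each region alone against liver gave 5 of 13 called higher and 0 lower, against a background of 10.2% and 6.38% for cerebellum and of 10.1% and 6.64% for cortex. At 1X, without a test, 8 of 13 were at least 2-fold higher in cerebellum than in cortex, against 0.829% of all probe sets, and 9 of 13 were at least 2-fold higher in brain than in liver, against 6.65%.

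**Figure D1:**
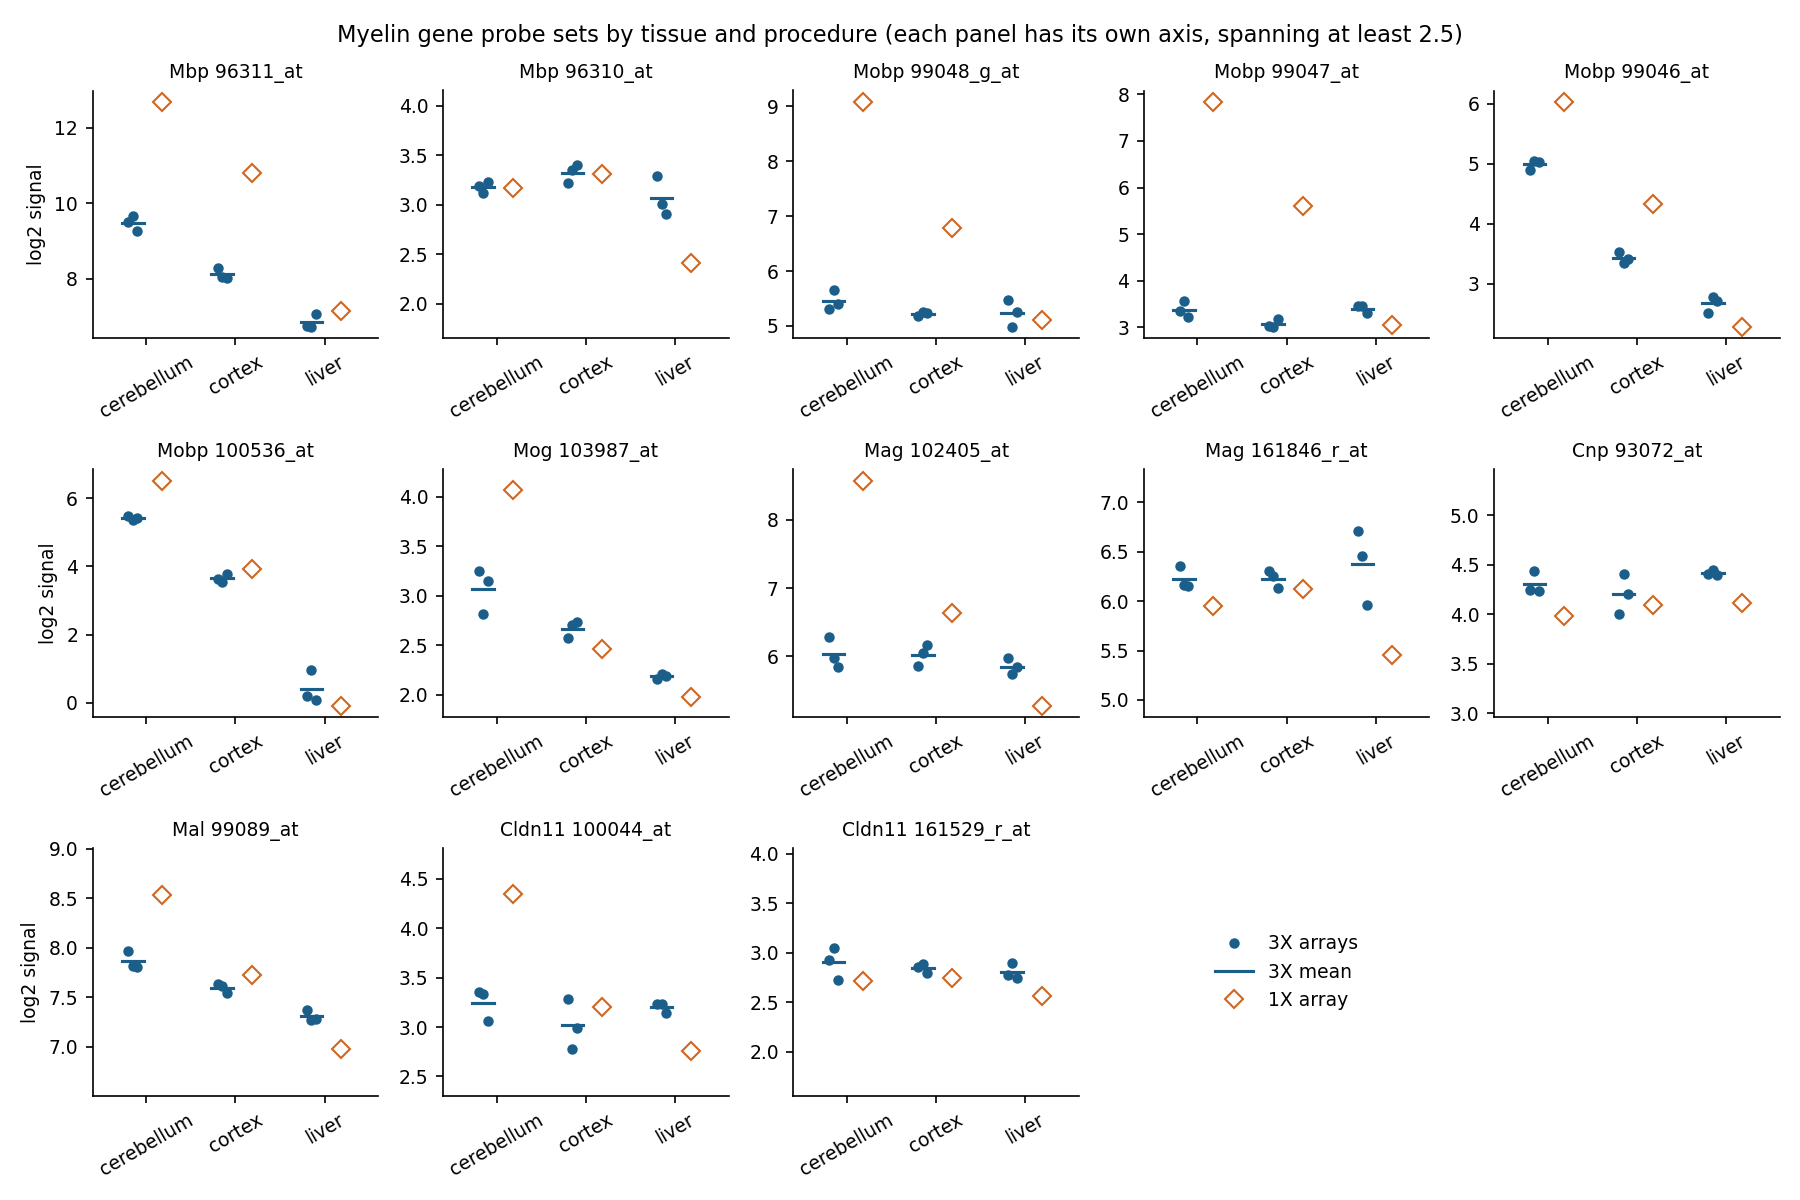
Log2 RMA signal of each of the 13 probe sets on each array, 1 panel per probe set, with cerebellum, cortex and liver along the horizontal axis and 3X arrays left of the 1X array. Mbp 96311_at, Mobp 99047_at, Mobp 99048_g_at and Mag 102405_at have 1X cerebellum signals of 12.69, 7.84, 9.08 and 8.57, above every 3X array of that tissue.

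Mbp encodes myelin basic protein, which binds the inner leaflet of the membrane and holds the cytoplasmic faces together. Its probe set 96311_at gave 9.51, 9.67 and 9.27 in the 3X cerebellum arrays, against 8.29, 8.05 and 8.02 in the 3X cortex arrays and 6.74, 6.73 and 7.07 in the 3X liver arrays. The 1X arrays gave 12.69 in cerebellum, 10.81 in cortex and 7.14 in liver. No 2 tissues overlapped at 3X, and the order was the same in both procedures. Cerebellum was higher than cortex by 1.36 ± 0.13 at 3X, or 2.57-fold (limma, adjusted p = 0.000583), and by 1.88 at 1X, or 3.68-fold. Brain was higher than liver by 1.95 ± 0.11 at 3X, or 3.88-fold (limma, adjusted p = 6.01e-07), and by 4.61 at 1X, or 24.4-fold. The liver signals stayed well above the array median in both procedures.

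The other Mbp probe set, 96310_at, was dim throughout. It gave 3.19, 3.12 and 3.23 in the 3X cerebellum arrays, 3.22, 3.35 and 3.40 in the 3X cortex arrays and 3.29, 3.01 and 2.91 in the 3X liver arrays, with 3.17, 3.31 and 2.41 at 1X in the same order of tissues. Neither comparison was called at 3X (cerebellum minus cortex -0.14 ± 0.10, adjusted p = 0.827, and brain minus liver 0.18 ± 0.09, adjusted p = 0.213, both limma). On the 3X arrays the distance of 96311_at above 96310_at, taken within each array, was 6.30 ± 0.25 in cerebellum and 4.80 ± 0.24 in cortex (SD, n = 3 each). These distances did not overlap, and the exact two-sided permutation p was 0.1, the smallest that 3 against 3 arrays can give. The distance was 5.55 ± 0.85 in brain and 3.78 ± 0.35 in liver (SD, n = 6 and 3, exact permutation p = 0.0238, the smallest for 6 against 3, adjusted p = 0.0556 over 14 tests).

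Mobp encodes a small basic protein of compact myelin that is made late in oligodendrocyte maturation, and its 4 probe sets did not give the same picture. Probe set 100536_at gave 5.47, 5.35 and 5.43 in the 3X cerebellum arrays, against 3.62, 3.54 and 3.78 in the 3X cortex arrays and 0.19, 0.97 and 0.09 in the 3X liver arrays. At 1X it gave 6.51 in cerebellum, 3.93 in cortex and -0.08 in liver, its only value below 0. The 3 tissues were separate on the 3X arrays. Cerebellum was higher than cortex by 1.77 ± 0.19 at 3X (limma, adjusted p = 0.00103) and by 2.58 at 1X, against cortex signals near the array median. Brain was higher than liver by 4.11 ± 0.17 at 3X (limma, adjusted p = 3.28e-08) and by 5.30 at 1X, against a dim liver signal. Probe set 99046_at was also ordered by tissue, with 4.90, 5.04 and 5.02 in the 3X cerebellum arrays, 3.53, 3.34 and 3.41 in the 3X cortex arrays and 2.52, 2.78 and 2.72 in the 3X liver arrays. Its 1X signals were 6.03 in cerebellum, 4.33 in cortex and 2.29 in liver. Again no tissues overlapped at 3X, and cortex and liver were dim. Cerebellum exceeded cortex by 1.56 ± 0.09 at 3X (limma, adjusted p = 1.98e-05) and by 1.71 at 1X, and brain exceeded liver by 1.54 ± 0.08 at 3X (adjusted p = 2.79e-07) and by 2.89 at 1X.

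The remaining Mobp probe sets, 99047_at and 99048_g_at, differed little between tissues at 3X and were strongly ordered at 1X. Probe set 99047_at gave 3.35, 3.56 and 3.23 in the 3X cerebellum arrays, 3.04, 3.02 and 3.18 in the 3X cortex arrays and 3.45, 3.46 and 3.31 in the 3X liver arrays. At 1X the same probe set gave 7.84 in cerebellum, 5.60 in cortex and 3.05 in liver. Its 3X signals were near the array median or below it in every tissue, and cerebellum and liver overlapped. Probe set 99048_g_at, whose suffix marks probes shared with a related probe set or transcript, gave 5.31, 5.66 and 5.40 in the 3X cerebellum arrays, 5.18, 5.25 and 5.24 in the 3X cortex arrays and 5.48, 4.99 and 5.26 in the 3X liver arrays. Its 1X signals were 9.08 in cerebellum, 6.78 in cortex and 5.10 in liver. For cerebellum minus cortex neither was called at 3X, with 0.30 ± 0.10 for 99047_at (limma, adjusted p = 0.336) and 0.23 ± 0.13 for 99048_g_at (adjusted p = 0.71). At 1X these differences were 2.24 for 99047_at, or 4.73-fold, and 2.30 for 99048_g_at, or 4.92-fold. Brain minus liver was -0.18 ± 0.09 for 99047_at (limma, adjusted p = 0.2) and 0.10 ± 0.11 for 99048_g_at (adjusted p = 0.626) at 3X, and 3.67 and 2.83 at 1X.

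The disagreement between the Mobp probe sets was measured on the 3X arrays as the within-array distance of each pair. The part of probe position or of Mobp isoforms in it was not tested. For cerebellum minus cortex, 99048_g_at gave a smaller difference than 100536_at, at -1.54, and than 99046_at, at -1.33. For 99047_at the same gaps were -1.47 and -1.26. Against liver the gaps to 100536_at were wider, at -4.02 for 99048_g_at and -4.29 for 99047_at. Over the 7 pairs of Mbp and Mobp probe sets and both tissue comparisons, 11 of 14 differences were at least 1 on the log2 scale. In 6 of the 7 brain and liver comparisons the exact permutation p was the smallest possible (0.0238). The lowest adjusted p was 0.0556, so no pair passed 0.05 after adjustment over the 14 tests. With these numbers of arrays, a pass needed the smallest possible p in all 7 brain and liver comparisons. The lack of a pass therefore says little about the size of the gaps. The pair 99048_g_at and 99047_at differed least, by -0.06 between cerebellum and cortex (exact permutation p = 0.5) and by 0.27 between brain and liver (exact permutation p = 0.0476, adjusted p = 0.0952).

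Mog, the glycoprotein on the outer surface of the sheath, was measured by 103987_at. The signals were 3.25, 2.81 and 3.15 in the 3X cerebellum arrays, 2.57, 2.70 and 2.73 in the 3X cortex arrays and 2.16, 2.21 and 2.19 in the 3X liver arrays, all dim. At 1X Mog gave 4.07 in cerebellum, 2.46 in cortex and 1.98 in liver, so only the 1X cerebellum array stood above its median. The tissues did not overlap at 3X. Brain was higher than liver by 0.68 ± 0.10 at 3X (limma, adjusted p = 0.000482) and by 1.29 at 1X. Cerebellum minus cortex was 0.40 ± 0.11 at 3X, which was not called (limma, adjusted p = 0.18), and 1.60 at 1X. Without the second 3X cerebellum replicate it was 0.53 and called (adjusted p = 0.0386).

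Mag, the adhesion molecule at the inner edge of the sheath that binds the axon, was measured by 102405_at. On the 3X arrays it gave 6.28, 5.98 and 5.85 in cerebellum, 5.86, 6.05 and 6.16 in cortex and 5.97, 5.74 and 5.84 in liver. On the 1X arrays it gave 8.57 in cerebellum, 6.63 in cortex and 5.28 in liver. The 3 tissues overlapped at 3X and were far apart at 1X. Cerebellum minus cortex was 0.02 ± 0.13 at 3X (limma, adjusted p = 0.995), against 1.94 at 1X, or 3.84-fold. Brain minus liver was 0.18 ± 0.11 at 3X (limma, adjusted p = 0.304), against 2.32 at 1X, or 5-fold. The second Mag probe set, 161846_r_at, carries a suffix for less specific probes. It gave 6.35, 6.16 and 6.15 in the 3X cerebellum arrays, 6.30, 6.25 and 6.13 in the 3X cortex arrays and 6.71, 6.46 and 5.96 in the 3X liver arrays, with 5.95, 6.12 and 5.45 at 1X in the same order. Neither 3X comparison was called (adjusted p = 0.998 for cerebellum minus cortex and 0.517 for brain minus liver, limma).

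Mal, a small proteolipid that sorts membrane to myelin and also to the apical face of kidney tubule cells, was measured by 99089_at. The signals were 7.97, 7.82 and 7.81 in the 3X cerebellum arrays, 7.64, 7.61 and 7.54 in the 3X cortex arrays and 7.37, 7.27 and 7.28 in the 3X liver arrays, and 8.53, 7.73 and 6.98 at 1X in the same order of tissues. All 3 tissues were separate at 3X, over a narrow range. Brain was higher than liver by 0.42 ± 0.07 at 3X, or 1.34-fold (limma, adjusted p = 0.00123), and by 1.14 at 1X, or 2.21-fold. Cerebellum minus cortex was 0.27 ± 0.08 at 3X (limma, adjusted p = 0.222) and 0.80 at 1X, or 1.74-fold. The kidney list moved in the same direction: 9 of its 26 genes were called higher in cerebellum than in cortex at 3X and 0 lower, led by Napsa, an aspartic protease, at 3.43 ± 0.12 (limma, adjusted p = 3.26e-07) and Fbp1, an enzyme of gluconeogenesis, at 2.59 ± 0.22 (adjusted p = 0.000313). The background at 3X was 0.628% higher and 0.435% lower. At 1X, 6 of the 26 were at least 2-fold higher in cerebellum, against 0.829% of all probe sets. The part of kidney transcripts in the Mal differences was not tested.

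Cldn11 and Cnp were called in neither tissue comparison at 3X. Cldn11, the claudin of myelin tight junctions, had signals of 3.35, 3.33 and 3.06 in the 3X cerebellum arrays, 3.28, 2.78 and 2.99 in the 3X cortex arrays and 3.23, 3.23 and 3.14 in the 3X liver arrays by 100044_at, all dim and overlapping. At 1X this probe set gave 4.35 in cerebellum, 3.20 in cortex and 2.76 in liver. Cerebellum minus cortex was 0.23 ± 0.13 at 3X (limma, adjusted p = 0.709) and 1.15 at 1X. Its other probe set, 161529_r_at, stayed between 2.73 and 3.05 on the 3X arrays and between 2.56 and 2.75 on the 1X arrays. Cnp, a cyclic nucleotide phosphodiesterase that keeps cytoplasmic channels open in the sheath, is a textbook marker of oligodendrocytes. Its probe set 93072_at gave 4.25, 4.44 and 4.24 in the 3X cerebellum arrays, 4.0, 4.41 and 4.21 in the 3X cortex arrays and 4.41, 4.45 and 4.40 in the 3X liver arrays, with 3.98, 4.10 and 4.12 at 1X. Cerebellum and cortex overlapped, and liver lay at the upper end of the brain signals or above them in both procedures. Cerebellum minus cortex was 0.10 ± 0.11 at 3X (limma, adjusted p = 0.914) and -0.12 at 1X, and brain minus liver was -0.17 ± 0.09 at 3X (adjusted p = 0.277) and -0.09 at 1X. The order seen for the other genes at 1X was thus not seen for Cnp.

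**Figure D2:**
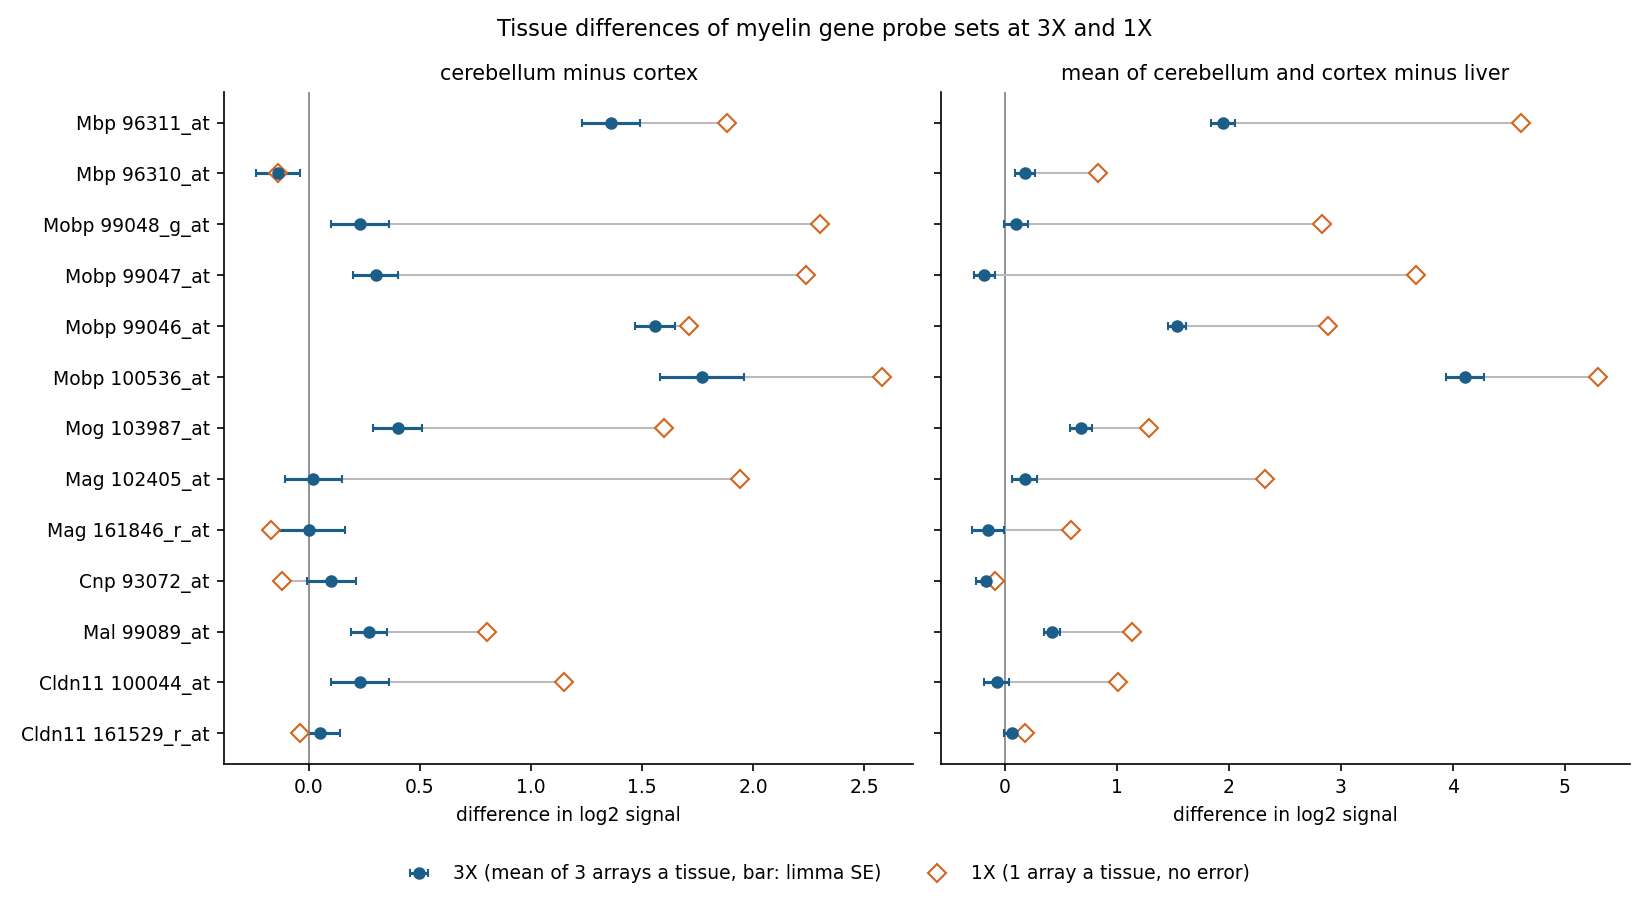
Tissue differences of the 13 probe sets on the log2 scale, cerebellum minus cortex in 1 panel and brain minus liver in the other, with 3X values and their SE bars and the 1X value of the lone array. Mbp 96311_at, Mobp 100536_at and Mobp 99046_at lie right of 0 at 3X in both panels, whereas Mag 102405_at lies at 0.02 for cerebellum minus cortex at 3X and at 1.94 at 1X.

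The 13 probe sets fell into 2 kinds at 1X. For 9 of them, of 6 genes, cerebellum was above cortex, and all 9 had the order cerebellum over cortex over liver. The remaining 4, 96310_at of Mbp, 161846_r_at of Mag, 161529_r_at of Cldn11 and 93072_at of Cnp, had 1X regional differences of -0.17 to -0.04 and 1X differences of brain minus liver of -0.09 to 0.83. On the 3X arrays these 4 ranged between -0.14 and 0.10 for cerebellum minus cortex and between -0.17 and 0.18 for brain minus liver. At 3X the arrays of cerebellum and cortex did not overlap in 7 of 13 probe sets, against 16.4% of all probe sets, and those of brain and liver did not overlap in 5 of 13, against 20.4%. The median difference over the 13 was 0.23 for cerebellum minus cortex at 3X (all probe sets -0.01) and 1.60 at 1X (all probe sets -0.03). For brain minus liver it was 0.18 at 3X (all probe sets -0.01) and 1.29 at 1X (all probe sets 0.02).

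The study set the 3X procedure against the 1X procedure, and the myelin genes differed most between the procedures in cerebellum. There, 9 of 13 probe sets were called lower at 3X than at 1X and 0 higher, against a background of 15.5% lower and 16.9% higher. They are the 9 that were ordered by tissue at 1X, and for each of them every 3X cerebellum array lay below the 1X array. The order at 1X and the fall in cerebellum both use the same lone 1X cerebellum array. A high reading on that array would give both, so their meeting in the same 9 is a description. In cortex 5 of 13 were called lower (background 13.9%) and 0 higher (background 12.4%). In liver 0 were called lower (background 15.7%) and 5 higher (background 19.8%). Each of these comparisons rests on 1 array at 1X, whose spread was taken to be that of the 3X replicates. The SD of the signals over all probe sets also differed between the procedures, at 1.63 to 1.69 on the 3X arrays and 1.75 to 1.81 on the 1X arrays, and its part in these differences was not tested.

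In cerebellum, Mobp 99047_at fell by 4.46 ± 0.14 at 3X relative to 1X (limma, adjusted p = 4.8e-08) and Mobp 99048_g_at by 3.63 ± 0.18, or 12.4-fold (adjusted p = 4.79e-07). Mbp 96311_at fell by 3.21 ± 0.19, or 9.26-fold (limma, adjusted p = 1.05e-06), and Mag 102405_at by 2.53 ± 0.18, or 5.78-fold (adjusted p = 3.94e-06). The remaining Mobp probe sets moved far less, with 100536_at at -1.10 ± 0.27 (limma, adjusted p = 0.0119) and 99046_at at -1.05 ± 0.13 (adjusted p = 0.00022). Cldn11 100044_at, Mog and Mal were at -1.11, -1.0 and -0.66, all called. In cortex the falls were 2.69 ± 0.19 for Mbp 96311_at, or 6.47-fold (limma, adjusted p = 4.26e-06), and 2.52 ± 0.14 for Mobp 99047_at (adjusted p = 1.1e-06). The other cortical calls were Mobp 99048_g_at at -1.56, Mobp 99046_at at -0.90 and Mag 102405_at at -0.61. The calls in liver ran the other way: Mag 161846_r_at was higher at 3X by 0.93, Mbp 96310_at by 0.66, Mag 102405_at by 0.57, Mobp 99046_at by 0.38 and Mal by 0.32, all called (limma, largest adjusted p = 0.049).

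**Figure D3:**
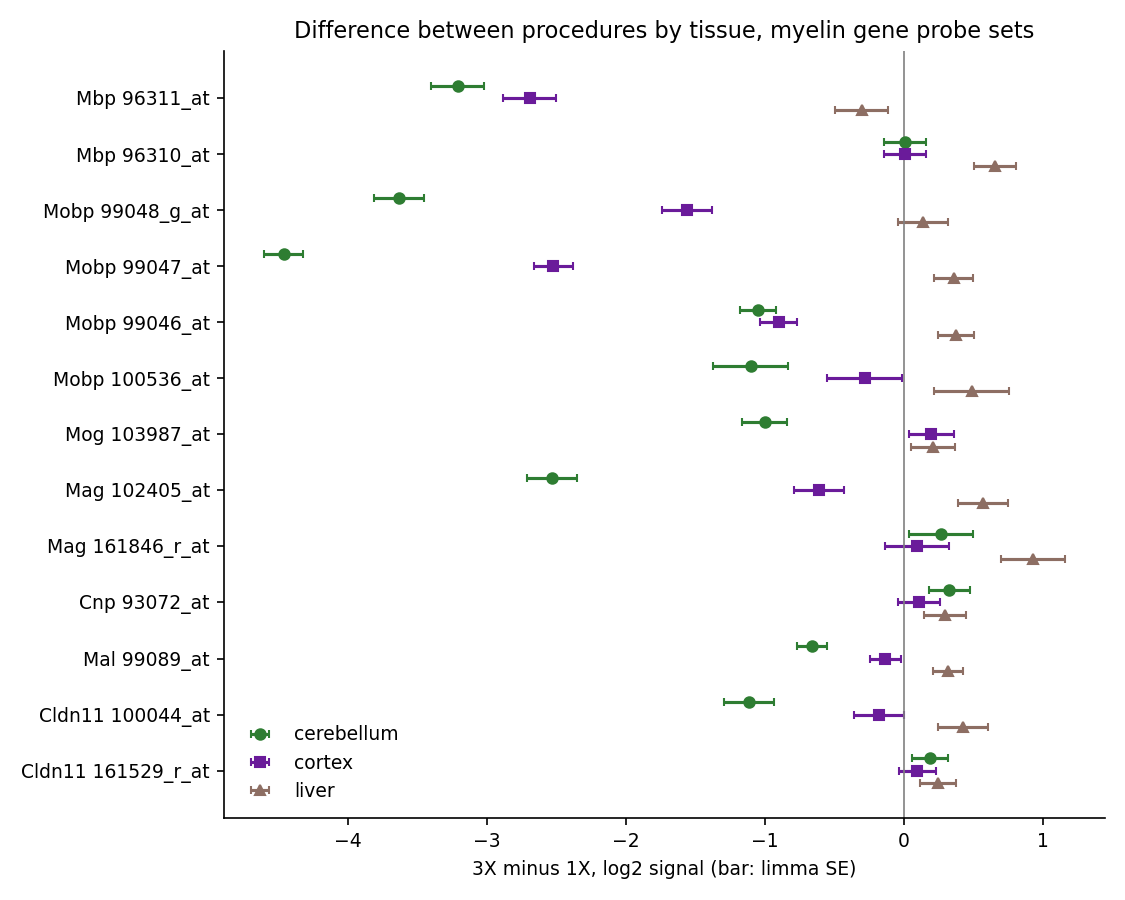
Difference of 3X minus 1X on the log2 scale for each of the 13 probe sets in cerebellum, cortex and liver, with SE bars from limma. Mobp 99047_at, Mobp 99048_g_at, Mbp 96311_at and Mag 102405_at lie at -4.46, -3.63, -3.21 and -2.53 in cerebellum, while the liver values lie between -0.30 and 0.93.

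Over the 3 tissues together, in a model with an additive tissue term, 4 of 13 probe sets were called lower at 3X and 2 higher, against a background of 19.5% and 37.5%. The 4 were Mbp 96311_at at -2.07 ± 0.40 (limma, adjusted p = 0.00151), Mobp 99047_at at -2.21 ± 0.61 (adjusted p = 0.0104), Mobp 99048_g_at at -1.68 ± 0.48 (adjusted p = 0.0123) and Mobp 99046_at at -0.52 ± 0.21 (adjusted p = 0.0498). The 2 were Mag 161846_r_at at 0.43 ± 0.17 (limma, adjusted p = 0.044) and Cnp at 0.24 ± 0.09 (adjusted p = 0.0329). The median of the 13 was -0.28, against 0.12 for all probe sets. Without the 1X cerebellum array the count called lower was 1, without the 1X cortex array it was 2, and without the 1X liver array it was 8. The count called higher was 0 without the 1X cerebellum array, the 1X liver array or the second 3X cerebellum replicate.

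The dependence of 3X minus 1X on tissue was called in 8 of 13 probe sets of 6 genes, against a background of 10.4%. It was strongest for Mobp 99047_at (moderated F = 294, limma adjusted p = 2.2e-06) and Mobp 99048_g_at (F = 107, adjusted p = 2.71e-05). Mag 102405_at followed (F = 77.8, adjusted p = 6.95e-05), then Mbp 96311_at (F = 70.1, adjusted p = 8.72e-05). Mobp 99046_at, Mog, Mal and Cldn11 100044_at were also called. Cnp was not (adjusted p = 0.979), and neither was Mobp 100536_at (adjusted p = 0.059). The difference of brain minus liver was lower at 3X than at 1X in all 13 probe sets and called so in 9, of 5 genes, with 0 called higher, against a background of 6.87% lower and 6.37% higher. The largest such losses were 3.85 ± 0.17 for Mobp 99047_at, 2.73 ± 0.22 for Mobp 99048_g_at, 2.65 ± 0.23 for Mbp 96311_at and 2.14 ± 0.22 for Mag 102405_at. Of the 9, Mobp 100536_at (adjusted p = 0.0408) and Mbp 96310_at (adjusted p = 0.0403) lost the call under quantile normalization, with adjusted p = 0.22 and 0.111, and were called in 6 and 5 of 13 alternatives. The loss was not particular to myelin genes. With each gene taken by its probe set of highest mean, it was called in 10 of 14 neuronal genes and 7 of 12 astrocyte genes, with 0 called higher. Counted likewise, it was called in 5 of the 7 myelin genes.

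The difference between cerebellum and cortex was called smaller at 3X in 3 of 13 probe sets and larger in 0, against a background of 0.201% and 0.153%. They were Mobp 99048_g_at at -2.07 ± 0.26 (limma, adjusted p = 0.00892), Mobp 99047_at at -1.94 ± 0.20 (adjusted p = 0.00268) and Mag 102405_at at -1.92 ± 0.25 (adjusted p = 0.0109). For Mog the value was -1.20 ± 0.22 (adjusted p = 0.0676) and for Mbp 96311_at -0.52 ± 0.26 (adjusted p = 1). Among the 8 probe sets with at least a 2-fold regional difference at 1X, the 3X difference came to a median of 22.6% of the 1X one, with a range of 0.866% to 91.5%. These probe sets were picked by the same unreplicated 1X difference that is the divisor, so part of the shortfall is set by that choice, and the percentages are descriptions. The median over all 103 probe sets past that fold was 33.4%, with an interquartile range of 19.8% to 58.5%. For brain and liver the median was 37.1% over 9 myelin probe sets, ranging between -6.51% and 77.6%, and 33.3% over all 826. The difference between these medians was not tested, and the myelin probe sets differed widely among themselves.

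Other genes that build or maintain myelin were measured through a list of 34 further myelin proteins, of which 15 were measured, each by its probe set of highest mean. None was called between cerebellum and cortex at 3X, which is near the background of 0.628% higher and 0.435% lower. Of the 15 differences, 14 were above 0, with a median of 0.14 against -0.01 over all probe sets. At 1X 13 of 15 were above 0 with a median of 0.46, and 5 were at least 2-fold higher in cerebellum, against 0.829% of all probe sets. Between brain and liver 3 were called higher and 1 lower at 3X, against a background of 12.3% and 8.17%. Car2, the carbonic anhydrase of oligodendrocytes and of kidney tubules, was higher in brain by 2.21 ± 0.15 (limma, adjusted p = 2.36e-06; 3.61 at 1X). Apod, a lipid-binding lipocalin, was higher by 1.09 ± 0.15 (limma, adjusted p = 0.000322; 2.40 at 1X), Septin4 by 0.38 ± 0.08 (adjusted p = 0.00841), and Cd82, a tetraspanin, was lower, at -0.28 ± 0.07 (adjusted p = 0.0212). Car2 and Apod had regional differences of 0.81 (adjusted p = 0.0657) and 0.77 (adjusted p = 0.0693) at 3X, and of 1.53 and 1.38 at 1X. At 3X relative to 1X, 7 of the 15 were called lower and 3 higher, against a background of 19.5% and 37.5%. The largest were Qdpr, a pteridine reductase, at -2.21 ± 0.24, and Cd9, a tetraspanin, at -1.86 ± 0.12.

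Of 26 enzymes that supply myelin lipids, 19 were measured. Scd2, the stearoyl-CoA desaturase that predominates in brain, was the only one called between the regions at 3X, higher in cerebellum by 0.62 ± 0.11 (limma, adjusted p = 0.0261; 0.83 at 1X). The regional background was 0.628% higher and 0.435% lower. The median of the list was 0.07 at 3X and 0.42 at 1X, where 17 of 19 were above 0. Between brain and liver 2 were called higher and 7 lower, against a background of 12.3% and 8.17%. Scd2 was higher in brain by 2.56 ± 0.10 (limma, adjusted p = 2e-08), while Scd1, the desaturase of liver, stood at -2.52 ± 0.23 (adjusted p = 1.81e-05) and Fdps, an enzyme of sterol synthesis, at -1.37 ± 0.13 (adjusted p = 3.11e-05). Between the procedures 10 of 19 were called lower at 3X and 2 higher, against a background of 19.5% and 37.5%.

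**Figure D4:**
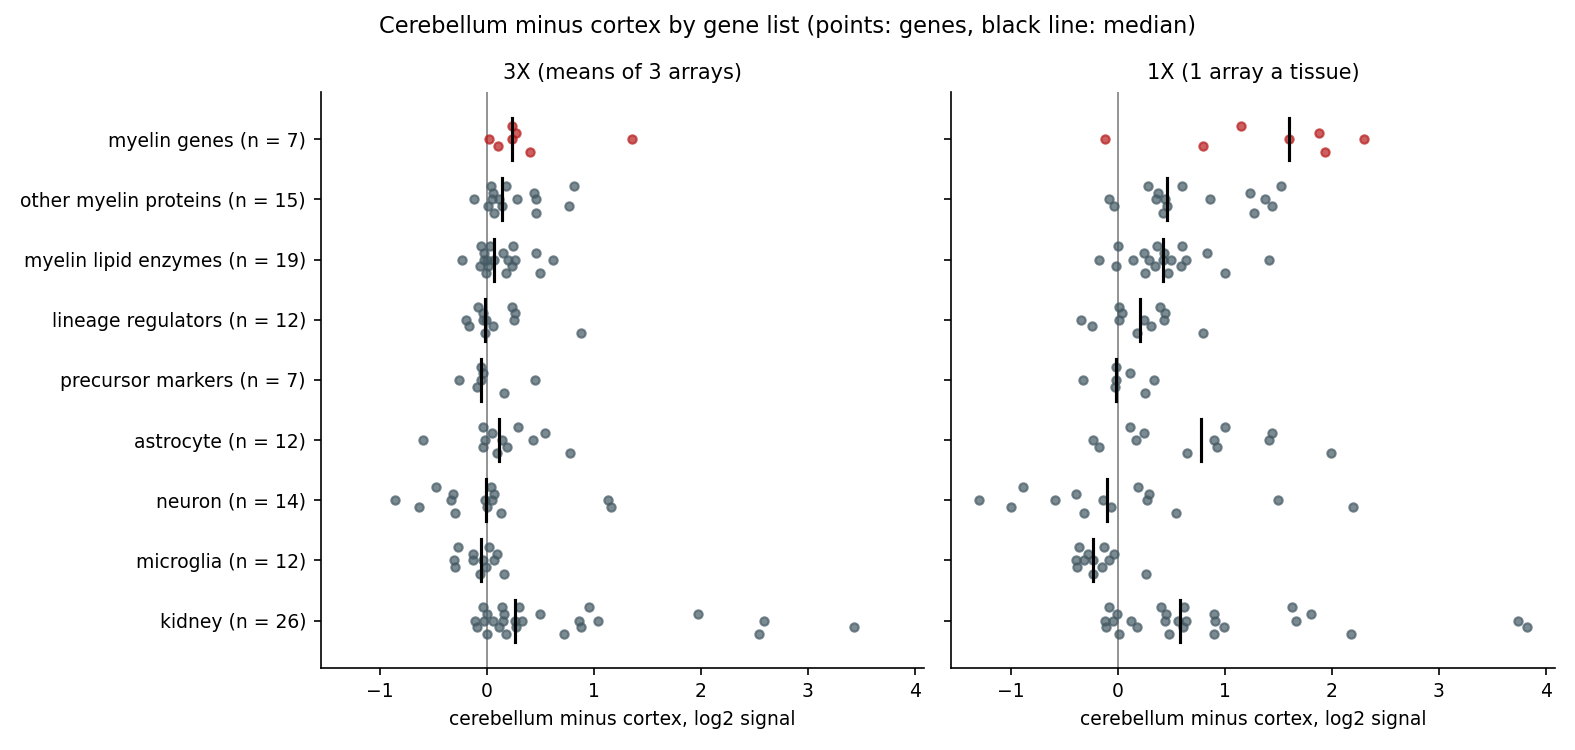
Cerebellum minus cortex on the log2 scale for every measured gene of 9 lists, by its probe set of highest mean, at 3X in the left panel and at 1X in the right panel, with a black line at each list's median. The 7 myelin genes have medians of 0.23 at 3X and 1.60 at 1X, the other myelin proteins 0.14 and 0.46, and the kidney genes 0.26 and 0.59.

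The genes whose profile over the 12 arrays was most like the mean of the 7 myelin genes, each by its probe set of highest mean, were Atp1b2 (Pearson's r = 0.977), Atp11a (0.974), Resp18 (0.973), Ddr1 (0.972), Rit2 (0.971) and Apc2 (0.970). These correlations are descriptions over 12 arrays that share an animal, 3 tissues and 2 procedures. Atp1b2, a sodium pump subunit of glia and neurons, averaged 3.85 in the 3X cerebellum arrays, 3.42 in cortex and 2.84 in liver, with 5.43, 4.10 and 2.44 at 1X. Resp18, a protein of neuroendocrine secretory granules, averaged 7.47, 6.93 and 6.42 at 3X and had 9.67, 8.07 and 5.61 at 1X. Ddr1, a collagen receptor also made by oligodendrocytes, averaged 5.89, 5.75 and 5.60 at 3X and had 6.87, 6.21 and 5.52 at 1X. All 3 share the order cerebellum over cortex over liver and a narrower range at 3X. They were picked by likeness to a mean profile with that order and narrowing, so sharing them follows from the choice. Against the same mean profile the myelin probe sets themselves ranged widely. The r was 0.95 for Mbp 96311_at and Mag 102405_at, 0.93 for Mal, 0.77 for Mobp 100536_at and -0.51 for Cnp. All of these but Mobp 100536_at are part of that mean, which raises their r. They cannot be ranked against Mobp 100536_at or the genes outside the mean.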

How the data were processed

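Signals were measured on 12 MG_U74Av2 arrays. RMA log2 signals were deposited by the authors, 1 per probe set and array (RMA is named in the submitters' processing notes). No source used here gives its version or says whether all arrays were normalized together, and base 2 was read from the highest value, 14.46. Of 12488 probe sets, 66 controls were left out, and 10833 of the 12422 tested carried 1 gene symbol, 396 several and 1193 none. Each difference was fitted by limma 3.58.1 (R 4.3.3) and its two-sided moderated p adjusted by Benjamini-Hochberg over 12422 probe sets, with a call at 0.05. Tissue comparisons used the 9 3X arrays. The procedure effect used all 12 arrays with tissue as an additive term, and its tissue dependence used 6 group means. Pairs of probe sets were compared by exact two-sided permutation over arrays (scipy 1.17.1). The number of arrays limits the precision. Replicate numbers come from the titles and did not pair the samples.

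The members and the 14 gene lists were chosen with earlier results of these data known. All 13 probe sets are described. Of each list up to 4 called genes with the largest difference were eligible to be named, and 6 genes most like the mean myelin profile. The tool was tested on simulated data. Alternatives were quantile normalization, median centring, filters on level and suffix, trend and robust settings, the replicate as a block, fits of other arrays and leaving out each array.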

Additional observations from a re-analysis of the deposited data

Results flagged for a closer look

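The difference between 3X and 1X depended on tissue in 8 myelin probe sets, by the moderated F test of limma over 6 group means, adjusted over 12422 probe sets. In each of them the 3X signal lay below the 1X signal in cerebellum, and in 7 of them the liver value was 0.14 or higher. Mobp 99047_at had an adjusted p of 2.2e-06, with 3X minus 1X at -4.46 in cerebellum, -2.52 in cortex and 0.36 in liver. Mobp 99048_g_at had 2.71e-05, with -3.63, -1.56 and 0.14 in the same order of tissues. For Mag 102405_at the adjusted p was 6.95e-05, with -2.53, -0.61 and 0.57. For Mbp 96311_at it was 8.72e-05, with -3.21, -2.69 and -0.30. For Mobp 99046_at it was 0.000865, with -1.05, -0.90 and 0.38. Mog reached 0.00555, Mal 0.00596 and Cldn11 100044_at 0.00686. Each value rests on 1 array at 1X per tissue.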

How the results depend on the processing

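Of the 34 called values of single probe sets, 25 were called in every alternative run, among them all 5 for brain minus liver at 3X. Tissue dependence and the changes of tissue differences between procedures were not rerun without a 1X array. For these the count does not probe the lone 1X arrays. The replicate block, whose numbers did not pair the samples (correlations of -0.099 to 0.342 for same numbers and -0.359 to 0.248 for different ones), left 3 and 5 myelin probe sets called higher in cerebellum and in brain, and changed no call of a myelin probe set. Mbp 96311_at between cerebellum and cortex lost its call with all 12 arrays in an additive model (1.49, limma adjusted p = 0.203). Among probe sets above the median level, 3 of 8 measured were called higher in brain. The 3X minus 1X counts moved most, where Mobp 99046_at was called lower in 8 of 21 alternatives and higher in 1 (liver alone), Mag 161846_r_at in 9 of 20 and Cnp in 14 of 21. Without suffixed probe sets 1 of 10 was called higher. With the 3 tissues as units, added after seeing the data, 0 were called higher and 0 lower. By tissue, also added later, 0 were called higher and 9 lower in cerebellum, 0 higher in cortex, and 5 higher and 0 lower in liver, where Mag 102405_at (0.57), Mobp 99046_at (0.38), 99047_at (0.36) and 99048_g_at (0.14), Mal (0.32), Mobp 100536_at (0.49), Cldn11 100044_at (0.43) and Mog (0.21) had the opposite sign to the value over 3 tissues, the last 3 being called in neither. Leaving out 1 array gave 0 to 2 called higher and 1 to 8 called lower for 3X minus 1X, 5 to 6 higher and 0 to 1 lower for brain minus liver, 3 to 4 higher for cerebellum minus cortex, and 8 to 11 for tissue dependence. The 1 lower was Mag 161846_r_at without the third 3X liver replicate (-0.36, adjusted p = 0.0216). Over all probe sets, cerebellum minus cortex gave 157 higher and 105 lower with the 6 brain arrays alone, 51 to 152 and 30 to 98 when 1 array was left out, and 78 and 54 in the reported fit. Above the median level 6211 probe sets were tested and counts fell with them, such as 963 and 644 for brain minus liver, against 1522 and 1015, and 2274 and 1411 for 3X minus 1X, against 4654 and 2419. The causes were not tested. Not run were the block with 1X arrays and tissue dependence without a 1X array, which leaves that tissue's difference without a value.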

Other observations

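Of 12 measured regulators of the lineage, 0 were called between cerebellum and cortex at 3X, near the background of 0.628% higher and 0.435% lower. At 1X 0 were at least 2-fold apart, where 0.829% of all probe sets were at least 2-fold higher in cerebellum. The largest of these regional differences was that of Nkx6-2, at 0.88 (limma, adjusted p = 0.0627) at 3X and 0.80 at 1X. Between brain and liver 3 were called higher and 1 lower, against a background of 12.3% and 8.17%. Nkx6-2, a homeobox factor of oligodendrocytes and their precursors, was higher in brain by 1.30 ± 0.16 (limma, adjusted p = 0.000198), Id4, an inhibitor of differentiation, by 0.91 ± 0.07 (adjusted p = 7.66e-06) and Myrf, the myelin regulatory factor, by 0.29 ± 0.08 (adjusted p = 0.0199). Id2 was the 1 called lower in brain, at -0.56 ± 0.17 (limma, adjusted p = 0.0423), and stood at -1.39 at 1X. Sox10 was higher at 3X than at 1X by 0.76 ± 0.14 (limma, adjusted p = 0.00118), against 0.12 for the median of all probe sets. Neither tissue comparison of Sox10 was called at 3X, where its probe set averaged 7.59 in cerebellum, 7.76 in cortex and 7.6 in liver. The liver signal was thus as high as in brain, and whether the probe set follows Sox10 transcripts was not tested. For Sox10 cerebellum minus cortex was -0.17 (limma, adjusted p = 0.785) and brain minus liver 0.08 (adjusted p = 0.649). At 1X the 2 differences were 0.43 and 0.67. Of 7 precursor markers, 0 were called between the regions, and Ptprz1, a receptor phosphatase, and Bcan, a proteoglycan, were higher in brain than in liver by 1.12 ± 0.20 and 0.53 ± 0.10. Of 5 Schwann cell genes, 0 were called between the regions and 1, S100b, was higher in brain by 0.67 ± 0.11. For both lists a regional count of 0 is near the background. S100b is in the astrocyte list too and is counted again there.

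Among other brain cells, 10 of 14 neuronal genes and 7 of 12 astrocyte genes were called higher in brain than in liver at 3X, with 0 lower. The background was 12.3% higher and 8.17% lower. Between the regions 2 neuronal genes (Nefh and Nefm, neurofilament subunits) and 1 astrocyte gene (Aldoc, 0.78 ± 0.09, adjusted p = 0.00129) were called higher in cerebellum. The regional background was 0.628% higher and 0.435% lower. The astrocyte list had a regional median of 0.12 at 3X and 0.77 at 1X. Microglial genes gave 0 calls between the regions, and 1 of 12 was called higher and 1 lower in brain than in liver, counts near the background. Of 5 choroid plexus genes, 0 were called in either tissue comparison by limma, which is near the background. Ttr, the transthyretin of choroid plexus and liver, had the largest difference, with cerebellum minus cortex at -1.27 at 3X (adjusted p = 0.09) and -2.56 at 1X.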
